A study of Mus musculus with 12 samples.

Results

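The mTORC1 network described here is a set of 45 genes that encode the mTOR kinase complexes, the GTPases and GTPase regulators that switch mTORC1 on at the lysosome, the cytosolic amino acid sensors, the insulin-side kinases and the best known effectors. Its members were selected by name, as rows of the deposited gene table whose symbol equals a listed member; the rule uses no measured value, but the list was drawn up with earlier results of these data known. All 45 were found, 1 row each, among the 27912 genes of the table, and all 45 passed the filter on low counts that left 17729 genes for testing. Liver RNA of single male mice was measured by sequencing of polyadenylated RNA. The livers compared were those of CCR1-KO mice (replicates 65, 66 and 67), which lack the chemokine receptor CCR1, and those of WT C57BL/6 mice (replicates 62, 63 and 64). Both groups were 8 weeks old at the start and both ate the CL diet (high fat, high cholesterol and cholate) for 12 weeks. The series holds 12 samples, and the 6 others were not analysed here. Which part of Ccr1 was deleted, and whether WT and CCR1-KO mice were littermates, is not stated in the labels. The series title links CCR1 to macrophage activation through mTORC1 signalling, so the question asked of the data was whether the transcripts of this network differ between CCR1-KO and WT livers.

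mTORC1 is a protein kinase complex that couples nutrients and growth factors to protein and lipid synthesis and restrains autophagy. Amino acids act through the Rag GTPases, which sit on the lysosome on the Ragulator scaffold and recruit mTORC1; GATOR1 switches the Rags off, GATOR2 opposes GATOR1, and arginine and leucine sensors hold GATOR2 in check when amino acids are scarce. Insulin acts through PDK1 and AKT, which inactivate the TSC complex and so release Rheb, the direct activator of mTORC1. In liver the complex is known for raising translation and sterol and fatty acid synthesis after feeding. Most of this control is by phosphorylation and location of proteins, neither of which was measured, so the values below are transcript levels and not mTORC1 activity.

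Read totals ran from 74699391 to 79154085 per library, and every member other than Rragb had at least 58 reads in each. Levels of 1 gene across livers are given in CPM, read counts made relative to library size after scaling by the trimmed mean of M-values (TMM), and levels of different genes are compared in deposited FPKM, which also divides by transcript length. FPKM carries no TMM scaling, and on that scale the median of all genes fell by 0.23 (log2) in CCR1-KO livers. Differences are given on the log2 scale, CCR1-KO over WT, each with its standard error (SE) after ±, from edgeR's quasi-likelihood test, with p-values adjusted over all 17729 genes (Benjamini-Hochberg) and a threshold of 0.05. Ccr1 itself had 11, 4 and 14 reads in CCR1-KO livers, against 100, 23 and 123 in WT livers (log2 fold change -2.72 ± 0.76, adjusted p = 0.0755). Reads summed over the 2 gene models of Nnt, a gene that differs between C57BL/6 substrains, were 140.5 ± 10.8 CPM in CCR1-KO and 64.6 ± 1.41 CPM in WT (SD, n = 3 each). The shorter of these models had 0 reads in every CCR1-KO liver and 1627, 2640 and 2314 reads in WT livers. Genotype and genetic background therefore cannot be told apart. Summed markers of stellate cells ran from 175 to 198 CPM in CCR1-KO livers and from 354 to 756 CPM in WT livers, with 5 of 7 called lower. Those of bile duct cells ran from 42.2 to 49.0 CPM in CCR1-KO and from 118 to 190 CPM in WT, with 1 of 5 called lower. Most of that sum was Spp1, the gene called, with 37.1 to 44.5 CPM in CCR1-KO and 111 to 180 CPM in WT. The other 4 (Krt19, Krt7, Epcam and Sox9) had at most 3.7 CPM in any liver, with negative log2 fold changes and no call. Macrophage markers summed to 366, 162 and 169.55 CPM in CCR1-KO livers, against 289, 339 and 242 CPM in WT livers (0 of 8 called). Lymphocyte markers summed to 15.8, 6.13 and 6.79 CPM in CCR1-KO livers, against 16.8, 15.0 and 13.3 CPM in WT livers (0 of 6 called). Endothelial markers summed to 147, 107 and 111 CPM in CCR1-KO livers, against 166, 153 and 115 CPM in WT livers (0 of 6 called). In all 3 lists the sums of CCR1-KO replicates 66 and 67 lay below every WT liver and the overlap came from replicate 65 alone. Of the macrophage markers, 4 (Adgre1, Cd68, Csf1r and Lyz2) passed in 1 of the 6 fits that left out 1 liver. So did 1 lymphocyte marker (Ptprc) and 1 endothelial marker (Stab2). These markers had negative log2 fold changes with all 6 livers, and the fits that left out 1 liver called 102 to 2419 genes in all. The macrophage list was not uniform, with 6 negative log2 fold changes and 2 positive (Clec4f, 0.37, and Timd4, 0.39). The 7 hepatocyte markers summed to 69576 to 88239 CPM in CCR1-KO and 71282 to 84877 CPM in WT, with 2 called higher; no marker of any list was at 0 in all 6 livers. Neutrophil markers summed to at most 1.07 CPM in CCR1-KO and 0.932 CPM in WT (0 of 3 called). The 4 mitochondrial transcripts summed to 39767, 40916 and 63928 CPM in CCR1-KO livers, against 60316, 36503 and 32381 CPM in WT livers (0 called). CCR1-KO replicate 67 and WT replicate 62 thus stood above the others. In bulk liver, fewer cells of a type and less RNA per cell cannot be told apart, and the part of these cell types in the results below was not tested.

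The share of the mTORC1 network that differed between CCR1-KO and WT livers was near that of all genes. Of the 45 members, 1 rose (Wdr59) and 1 fell (Mlst8), and 43 did not pass the threshold. That is 4.44% of the members, against 6.44% of all tested genes (2.83% higher and 3.61% lower). Without scaling factors 0 rose and 2 fell (Mlst8 and Mtor), where 6.07% of all tested genes were called. DESeq2 called 5 members and 14.2% of all tested genes. Without CCR1-KO replicate 65, 6 members passed, and without any 1 of the other 5 livers, 0. The number of all genes called moved as well, from 1141 to 2419 without replicate 65 and to between 102 and 395 without any 1 of the others. These member counts are therefore no result about the network. The groups did not overlap for 16 members (8 higher and 8 lower in CCR1-KO), which is 35.6% against 32.6% of all tested genes. Unadjusted p was under 0.05 for 13 members (28.9%), against 24.4% of all tested genes. The median log2 fold change was 0.05 over the members and 0.0017 over all tested genes, and the median size of the change was 0.20 over the members and 0.33 over all tested genes. The 95% interval of the fold change lay wholly within 1.5-fold either way for 28 members (62.2%) and within 2-fold for 37 (82.2%), against 24.8% and 51.2% of all tested genes. For those members the data bound the difference, while for the other 8 a change of 2-fold was within the interval. Change size and interval width also vary with read depth, for which members and all genes were not matched. Every member other than Rragb had at least 58 reads in each liver, while the filter for testing used a minimum count of 10. The comparison with all genes therefore does not show that the network was unusually stable.

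**Figure D1:**
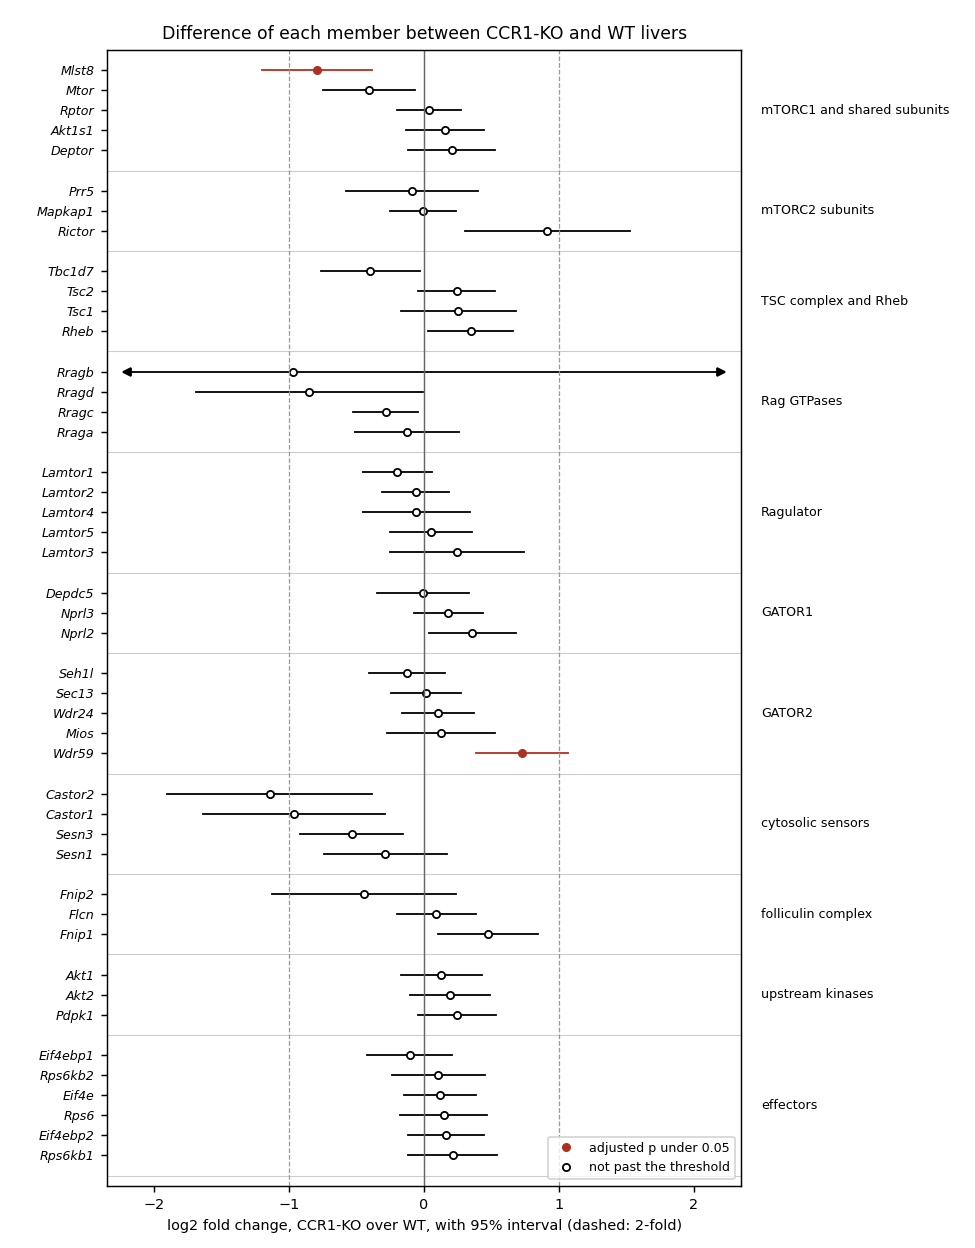
Log2 fold change of each of the 45 members, CCR1-KO over WT, with its 95% interval (x axis), grouped by role; dashed lines mark 2-fold and filled red points an adjusted p under 0.05. Mlst8 and Wdr59 are the 2 filled points, all 4 Rag GTPases and all 4 cytosolic sensors lie left of 0, and the interval of Rragb runs past both ends of the axis.

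The promoters of the 2 called members are shown first, because these genes moved in opposite directions. They are RefSeq windows of 300 bases on GRCm38.p6, from 250 bases before to 50 after the annotated start, for Mlst8 at chr17:24479029-24479328 and for Wdr59 at chr8:111522058-111522357, both on the minus strand. Capitals mark TTCCCAG, searched on both strands and chosen after these windows had been read. It begins 164 bases before the start of Mlst8 and 185 bases before that of Wdr59. The same letters stood in 11.1% of all promoter windows, and since these windows chose the motif its presence in both is no finding.
Mlst8: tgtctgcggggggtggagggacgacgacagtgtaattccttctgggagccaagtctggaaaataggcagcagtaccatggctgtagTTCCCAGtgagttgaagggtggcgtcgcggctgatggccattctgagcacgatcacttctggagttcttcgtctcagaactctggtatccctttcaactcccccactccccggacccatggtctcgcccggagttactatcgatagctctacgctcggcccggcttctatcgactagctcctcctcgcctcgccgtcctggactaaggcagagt
Wdr59: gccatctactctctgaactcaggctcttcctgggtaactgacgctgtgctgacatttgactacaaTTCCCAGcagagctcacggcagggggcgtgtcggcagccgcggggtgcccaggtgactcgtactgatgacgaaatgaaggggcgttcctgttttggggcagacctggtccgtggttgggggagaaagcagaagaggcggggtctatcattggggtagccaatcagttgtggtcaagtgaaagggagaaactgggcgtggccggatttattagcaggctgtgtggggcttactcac

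The E-box is shown because some members carry it near their start. CACGTG is the E-box core bound by TFEB and TFE3, lysosomal regulators that mTORC1 keeps out of the nucleus, and by clock and MYC family factors as well. Searched on both strands (the motif reads the same on each), it stood in the windows of 8 of the 39 members with a window, 20.5%, against 8.09% of all gene symbols. None of these 8 was called, and their log2 fold changes ran from -0.97 to 0.47. The E-box nearest to the start of each is shown, in capitals, with 10 bases on either side. The match marks letters, not binding.
Rheb, chr5:24842442-24842467, minus strand: cgcgcgcggtCACGTGggtgtgttgt
Eif4e, chr3:138527194-138527219, plus strand: acacgtccgtCACGTGggcaggagcc
Rragc, chr4:123917311-123917336, plus strand: tgattccgggCACGTGatagtaccac
Rragb, chrX:153139945-153139970, plus strand: ggcaggttccCACGTGatcctggcct
Lamtor1, chr7:101905759-101905784, plus strand: gccttcctatCACGTGccgcgggtcc
Lamtor4, chr5:138255368-138255393, plus strand: aacagcttttCACGTGtaaaccaaac
Fnip1, chr11:54438094-54438119, plus strand: agtttgctgcCACGTGatacggctcg
Tbc1d7, chr13:43171539-43171564, minus strand: ggttaacatcCACGTGtgggtgggac

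Among the subunits of the kinase complexes, Mlst8 was lower in CCR1-KO livers. It encodes the small beta-propeller protein that binds the mTOR kinase domain in both mTOR complexes (ENSMUSG00000024142, chromosome 17, 24473551 to 24479078, minus strand). Mlst8 had 8.87, 6.15 and 6.81 CPM in CCR1-KO livers, against 12.7, 11.6 and 13.7 CPM in WT livers. Every CCR1-KO liver lay below every WT liver, with replicate 65 closest to WT. Means were 7.27 ± 1.42 CPM in CCR1-KO and 12.7 ± 1.04 CPM in WT (SD, n = 3 each), a log2 fold change of -0.80 ± 0.18 (edgeR, adjusted p = 0.041). This call was lost in 5 of the 6 fits that left out 1 liver, with adjusted p up to 0.157, and held without CCR1-KO replicate 65, at 0.0129. The gene model overlaps that of Bricd5 on the other strand, which had at most 6 reads in any liver.

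Mtor, the kinase itself, had 37.0, 52.7 and 42.8 CPM in CCR1-KO livers, against 61.5, 55.1 and 59.7 CPM in WT livers. The groups did not overlap, but CCR1-KO replicate 66 lay close to WT replicate 63, and the difference missed the threshold (log2 fold change -0.41 ± 0.15, adjusted p = 0.14). Mtor was called lower without scaling factors (adjusted p-values of edgeR, where 6.07% of all tested genes were called). It was also called lower with limma on FPKM at pseudocounts of 0.5 (10.5% called) and 0.1. In these fits the median of all genes fell too, by 0.30 without scaling factors and by 0.23 and 0.27 with limma. DESeq2 and limma with no filter did not call Mtor. Rptor, the raptor subunit that brings substrates to mTORC1, had 30.1, 33.2 and 31.6 CPM in CCR1-KO livers, against 30.5, 30.4 and 31.5 CPM in WT livers. These values interleaved, and the 95% interval of the log2 fold change, -0.20 to 0.27, bounds any difference within 1.5-fold. The groups also overlapped for both inhibitory subunits. Deptor, an inhibitor and the most abundant transcript of the complex per length (15.3 ± 1.69 FPKM in CCR1-KO and 16.5 ± 1.20 FPKM in WT), had 143, 188 and 168 CPM in CCR1-KO livers, against 143, 156 and 135 CPM in WT livers. Akt1s1, which encodes the inhibitor PRAS40, ran from 27.2 to 32.2 CPM in CCR1-KO and from 24.9 to 29.99 CPM in WT.

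In mTORC2, the complex that phosphorylates AKT, 0 of 3 members were called, and the scaffold Rictor had the largest log2 fold change of the 3. Rictor had 15.2, 31.7 and 19.3 CPM in CCR1-KO livers, against 10.9, 13.6 and 10.6 CPM in WT livers. The groups did not overlap, and replicate 66 set the upper end in CCR1-KO (log2 fold change 0.91 ± 0.27, 95% interval 0.30 to 1.53, adjusted p = 0.084). Without that replicate the log2 fold change was 0.57. Mapkap1, which encodes the SIN1 subunit, had 28.7, 27.7 and 25.7 CPM in CCR1-KO livers, against 28.2, 26.2 and 28.3 CPM in WT livers, with overlapping groups. Prr5, the Protor subunit, ran from 3.11 to 4.05 CPM in CCR1-KO and from 3.28 to 4.15 CPM in WT. Within a liver, the ratio of Rptor to Rictor FPKM, a measure that no library scaling can move, was 2.50, 1.32 and 2.04 in CCR1-KO livers, against 3.48, 2.80 and 3.72 in WT livers. All CCR1-KO ratios lay below all WT ratios (difference of the mean log2 ratio -0.81, exact two-sided permutation p = 0.10, the smallest that 3 against 3 livers allow, and 0.367 adjusted over the 11 pairs compared).

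**Figure D2:**
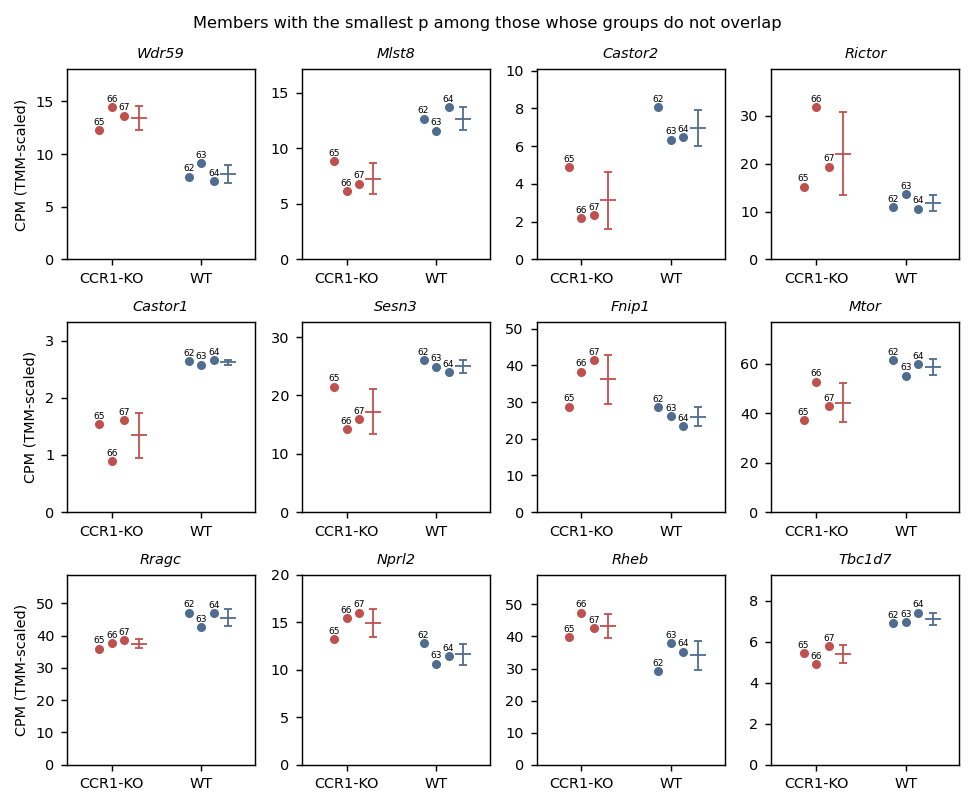
TMM-scaled CPM in each liver (points, with replicate numbers) and mean ± SD (bars) for the 12 members with the smallest p among the 16 whose groups do not overlap, CCR1-KO left and WT right, each axis from 0. Replicate 65 is the CCR1-KO liver nearest to WT for Mlst8, Wdr59, Castor2, Rictor, Sesn3, Fnip1, Nprl2 and Rheb.

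The TSC complex and Rheb showed no called change. Rheb, the GTPase that activates mTORC1, had 39.7, 47.4 and 42.6 CPM in CCR1-KO livers, against 29.2, 37.8 and 35.2 CPM in WT livers. The CCR1-KO values all lay above the WT values, but by a margin smaller than the SD within either group (3.87 CPM in CCR1-KO and 4.44 CPM in WT; log2 fold change 0.34 ± 0.14, adjusted p = 0.17). Tbc1d7, the smallest subunit of the TSC complex, had 5.45, 4.92 and 5.79 CPM in CCR1-KO livers, against 6.90, 6.97 and 7.42 CPM in WT livers. It was lower in each CCR1-KO liver (log2 fold change -0.40 ± 0.16, adjusted p = 0.174). Tsc2, the subunit that switches Rheb off, ran from 46.6 to 55.7 CPM in CCR1-KO and from 40.1 to 46.8 CPM in WT, and its partner Tsc1 from 24.3 to 31.4 CPM in CCR1-KO and from 18.4 to 28.5 CPM in WT. The ratio of Tsc1 to Tsc2 FPKM was 0.461 ± 0.060 in CCR1-KO and 0.454 ± 0.0785 in WT (SD, n = 3 each), a difference smaller than the spread.

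On the lysosomal platform, 0 of the 4 Rag GTPases were called. All 4 had a negative log2 fold change, as had 49.9% of all tested genes, with a median of -0.57; without CCR1-KO replicate 67 the median was -0.37 and without WT replicate 64 it was -0.21, both relative to all genes, and the log2 fold change of Rraga was 0.01. mTORC1 is recruited by a dimer of RagA or RagB with RagC or RagD, and in FPKM 1 member of each kind stood above the other. Rraga averaged 12.1 ± 3.39 FPKM in CCR1-KO and 16.2 ± 3.34 FPKM in WT, while Rragb had 13, 7 and 0 reads in CCR1-KO livers and 0, 18 and 30 reads in WT livers. A count of 0 allows up to 0.0502 CPM in CCR1-KO replicate 67 and 0.0364 CPM in WT replicate 62, for counting error only. Rragc had 35.9, 37.7 and 38.6 CPM in CCR1-KO livers, against 47.1, 42.6 and 47.0 CPM in WT livers. Its spread was small in both groups and they did not overlap (log2 fold change -0.28 ± 0.10, adjusted p = 0.147). Rragd ran from 1.61 to 2.45 CPM in CCR1-KO and from 1.98 to 5.05 CPM in WT. Rraga had 25.45, 25.8 and 19.2 CPM in CCR1-KO livers, against 22.9, 23.7 and 30.4 CPM in WT livers, so its groups overlapped.

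The 5 Ragulator genes, whose products anchor the Rags to the lysosome, had 0 calls. Lamtor2, the most abundant of them (21.4 ± 4.04 FPKM in CCR1-KO and 27.5 ± 0.525 FPKM in WT), had 33.0, 29.0 and 32.8 CPM in CCR1-KO livers, against 34.6, 32.3 and 32.1 CPM in WT livers. Lamtor1, the lipid-anchored subunit, had 28.0, 26.5 and 25.2 CPM in CCR1-KO livers, against 32.8, 30.05 and 28.75 CPM in WT livers. Its groups were apart by less than 1 CPM (log2 fold change -0.20 ± 0.11, adjusted p = 0.305), and those of the other 4 overlapped. Log2 fold changes over the 5 ran from -0.20 (Lamtor1) to 0.24 (Lamtor3).

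GATOR2, which holds GATOR1 in check, contained the 1 member that rose. Wdr59, a WD-repeat subunit of GATOR2 (ENSMUSG00000031959, chromosome 8, 111448797 to 111522092, minus strand), had 12.2, 14.4 and 13.6 CPM in CCR1-KO livers, against 7.85, 9.10 and 7.41 CPM in WT livers. Every CCR1-KO liver was above every WT liver, and the gap between groups was wider than the spread within them. Means were 13.4 ± 1.11 CPM in CCR1-KO and 8.12 ± 0.879 CPM in WT (SD, n = 3 each), a log2 fold change of 0.72 ± 0.15 (edgeR, adjusted p = 0.032). This call was lost in 5 of the 6 fits that left out 1 liver, with adjusted p up to 0.134, and held without CCR1-KO replicate 65, at 0.023. The other 4 subunits had log2 fold changes between -0.13 (Seh1l) and 0.13 (Mios), and none of them was called. Sec13, also a coat protein of vesicles leaving the endoplasmic reticulum and the most abundant of the 5, had 43.4, 42.5 and 39.6 CPM in CCR1-KO livers, against 40.04, 38.9 and 45.4 CPM in WT livers. Wdr24 ran from 15.04 to 15.4 CPM in CCR1-KO and from 13.1 to 14.8 CPM in WT, groups that did not overlap but lay close together (log2 fold change 0.10 ± 0.12, adjusted p = 0.631).

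GATOR1, the complex that turns RagA and RagB off, had 0 of 3 members called. Nprl2 had 13.2, 15.4 and 16.01 CPM in CCR1-KO livers, against 12.8, 10.6 and 11.4 CPM in WT livers. Nprl3 had 19.5, 19.3 and 17.6 CPM in CCR1-KO livers, against 16.7, 16.5 and 16.6 CPM in WT livers. Both were higher in every CCR1-KO liver, by 0.36 ± 0.14 (adjusted p = 0.168) and 0.18 ± 0.11 (adjusted p = 0.356) on the log2 scale. Nprl2 lies 16.4 Mb from Ccr1 on chromosome 9. Depdc5, the largest subunit, ran from 8.94 to 11.6 CPM in CCR1-KO and from 10.1 to 10.98 CPM in WT. The folliculin complex, which acts on RagC and RagD, also had 0 of 3 members called. Fnip1 had 28.8, 38.3 and 41.5 CPM in CCR1-KO livers, against 28.6, 26.1 and 23.45 CPM in WT livers. Its groups were apart, by a small margin at CCR1-KO replicate 65 (log2 fold change 0.47 ± 0.16, adjusted p = 0.122). Fnip2 had 25.02, 13.8 and 35.3 CPM in CCR1-KO livers, against 35.6, 30.6 and 34.7 CPM in WT livers, and these groups overlapped. The ratio of Fnip1 to Fnip2 FPKM was 1.41, 3.40 and 1.43 in CCR1-KO livers, against 0.982, 1.04 and 0.828 in WT livers. Fnip1 exceeded Fnip2 in every CCR1-KO liver and differed little from it in WT livers (difference of the mean log2 ratio 1.006, or 0.585 without CCR1-KO replicate 66, exact permutation p = 0.10, adjusted 0.367). Flcn, the folliculin gene, had 30.7, 37.7 and 31.4 CPM in CCR1-KO livers, against 29.1, 30.6 and 34.0 CPM in WT livers, with no separation.

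The cytosolic amino acid sensors had the lowest median log2 fold change of the roles, -0.75, yet none passed the threshold. Groups did not overlap for 3 of the 4, as for 32.6% of all tested genes. Castor1 and Castor2 encode the arginine sensor and its close relative, which bind GATOR2. Castor2 had 4.89, 2.19 and 2.34 CPM in CCR1-KO livers, against 8.05, 6.35 and 6.48 CPM in WT livers. Castor1 had 1.54, 0.889 and 1.61 CPM in CCR1-KO livers, against 2.64, 2.58 and 2.66 CPM in WT livers. Both were lower in each CCR1-KO liver, with means of 3.14 ± 1.52 against 6.96 ± 0.949 CPM for Castor2 (log2 fold change -1.14 ± 0.33, 95% interval -1.91 to -0.38, adjusted p = 0.082) and 1.34 ± 0.396 against 2.62 ± 0.0437 CPM for Castor1 (log2 fold change -0.96 ± 0.29, 95% interval -1.64 to -0.29, adjusted p = 0.093). Castor1 rests on few reads, 58 in CCR1-KO replicate 66. The sestrins also bind GATOR2, and sestrins are induced by stress and FoxO factors. Sesn3 had 21.5, 14.2 and 15.9 CPM in CCR1-KO livers, against 26.1, 24.96 and 23.95 CPM in WT livers. All CCR1-KO values were below all WT values, with replicate 65 nearest (log2 fold change -0.54 ± 0.17, adjusted p = 0.098). Sesn1, the most abundant sensor per length (1.93 ± 0.110 FPKM in CCR1-KO and 2.93 ± 0.707 FPKM in WT), had 8.50, 9.30 and 10.5 CPM in CCR1-KO livers, against 10.4, 14.7 and 9.49 CPM in WT livers, and its groups overlapped. Without CCR1-KO replicate 65, Castor2 and Sesn3 were called lower, and Rictor and Fnip1 higher, beside Mlst8 and Wdr59, in a fit that called 2419 genes in all. The CCR1-KO livers that remain are those below every WT liver in the macrophage, lymphocyte and endothelial sums. They also had 12.2% and 15.8% of their reads in major urinary protein (Mup) genes, against 3.36% in replicate 65 and 0.927% to 1.05% in WT livers. The part of either difference in these calls was not tested. Castor1 stayed outside the threshold in that fit but passed with DESeq2, which called 14.2% of all tested genes. It also passed with limma on FPKM, which carries no TMM scaling, at pseudocounts of 0.5 (10.5% called) and 0.1. Limma with no filter did not call it.

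**Figure D3:**
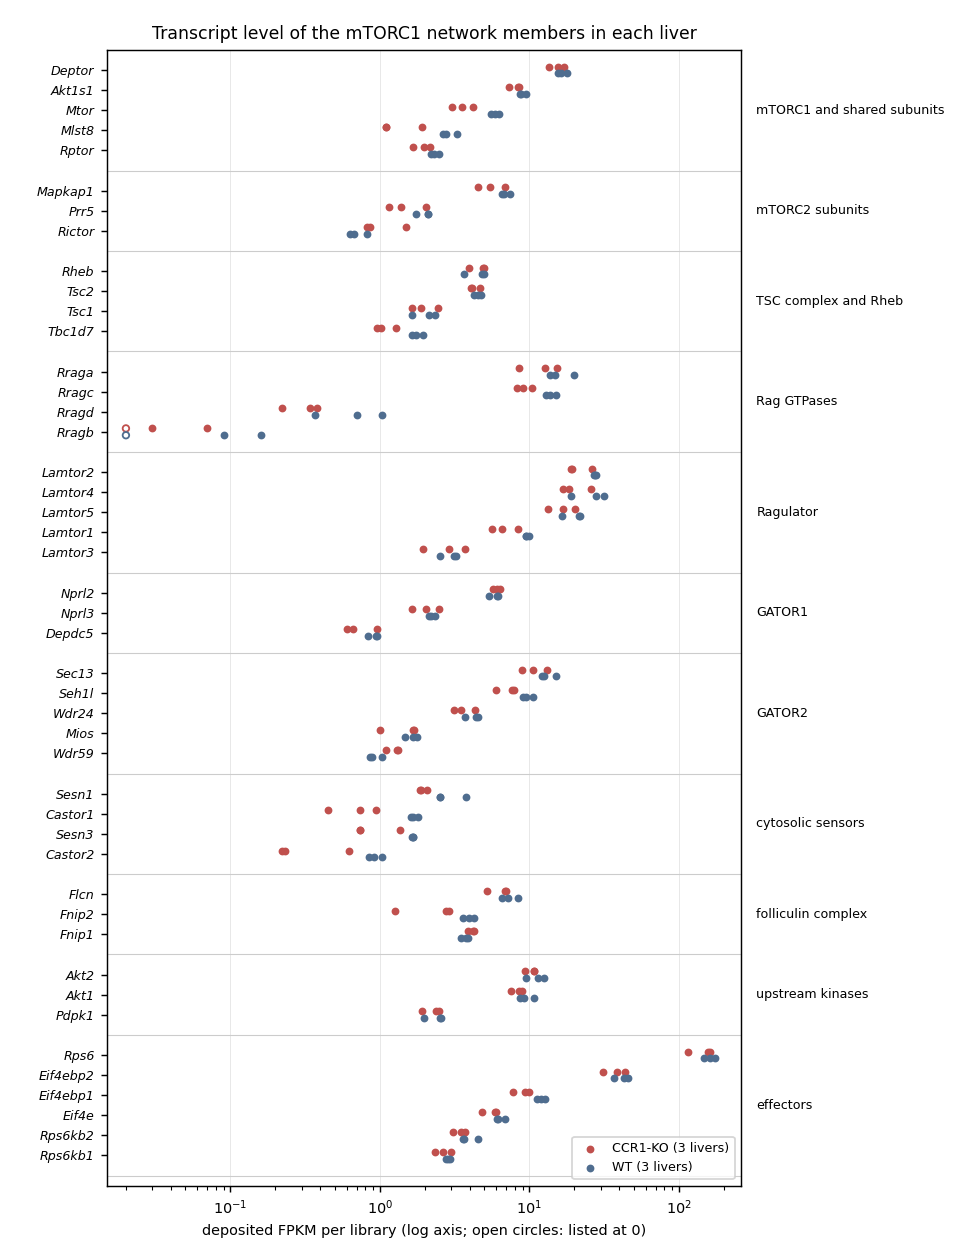
Deposited FPKM of the 45 members in each of the 3 CCR1-KO (red, upper) and 3 WT livers (blue, lower), on a log axis and grouped by role; open circles mark values listed at 0. Rps6 stands highest and Rragb lowest, and within-gene gaps between groups are small beside the range between genes.

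The insulin-side kinases and the effectors showed no called change. Pdpk1, which encodes PDK1, had 28.0, 32.5 and 29.5 CPM in CCR1-KO livers, against 22.4, 27.2 and 26.4 CPM in WT livers. Akt2, the main AKT isoform of insulin action in liver, had 78.9, 95.2 and 93.1 CPM in CCR1-KO livers, against 70.3, 79.8 and 83.6 CPM in WT livers, and Akt1 ran from 36.1 to 45.9 CPM in CCR1-KO and from 36.4 to 41.5 CPM in WT. The Pdpk1 groups were apart (log2 fold change 0.25 ± 0.12, adjusted p = 0.267), those of Akt1 and Akt2 overlapped, and 0 of the 3 passed. Of the 6 effectors, 0 passed, 0 had groups that did not overlap, and log2 fold changes ran from -0.11 (Eif4ebp1) to 0.21 (Rps6kb1). Rps6kb1 and Rps6kb2, the S6 kinases, averaged 28.3 ± 4.36 and 21.6 ± 1.64 CPM in CCR1-KO, against 24.4 ± 1.94 and 20.1 ± 3.48 CPM in WT. Eif4e, the cap-binding protein that 4E-BPs sequester, ran from 36.6 to 44.7 CPM in CCR1-KO and from 36.3 to 38.55 CPM in WT. Eif4ebp2 was the main 4E-BP transcript among the members (37.7 ± 6.23 FPKM in CCR1-KO and 41.6 ± 4.40 FPKM in WT), above Eif4ebp1 (8.97 ± 1.125 FPKM in CCR1-KO and 12.0 ± 0.777 FPKM in WT). The ratio of Eif4ebp1 to Eif4ebp2 FPKM was 0.214, 0.255 and 0.248 in CCR1-KO livers, against 0.324, 0.282 and 0.262 in WT livers. It was lower in each CCR1-KO liver (difference of the mean log2 ratio -0.27, exact permutation p = 0.10, adjusted 0.367), although neither gene passed by itself.

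Rps6, the substrate by which S6 kinase activity is usually read out, was the most abundant member in both groups (144 ± 25.5 FPKM in CCR1-KO and 160.3 ± 13.7 FPKM in WT). Ribosomal protein mRNAs begin with a terminal oligopyrimidine (TOP) stretch, a C followed by pyrimidines, through which mTORC1 controls their translation. The Rps6 sequence around its start is shown with that stretch in capitals (RefSeq, GRCm38.p6, chr4:86857353-86857382, minus strand). The run is 10 bases long and begins 1 base before the annotated start; 14.1% of all promoter windows have a C with at least 4 pyrimidines after it that begins within 4 bases of the start.
Rps6: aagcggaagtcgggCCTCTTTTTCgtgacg
Rps6 had 255.4, 319.99 and 253.5 CPM in CCR1-KO livers, against 239.5, 270.5 and 239.95 CPM in WT livers, with overlapping groups (log2 fold change 0.14 ± 0.14, adjusted p = 0.573). The 31 other small-subunit protein genes gave 0 calls and a median log2 fold change of 0.19, against 0.0017 over all tested genes in the same fit. These medians depend on the scaling: in the separate fit without scaling factors the median of all genes fell by 0.30. Their summed CPM was lowest in CCR1-KO replicate 67 (3546) and WT replicate 62 (3036), and ran from 3691 to 4982 in the other livers. Those are also the livers with the highest sums of mitochondrial transcripts, and the reason was not tested. Ribosomal protein genes have many processed copies, so how their reads were assigned is uncertain.

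Of the 11 pairs of members compared as ratios within a liver, 3 had groups that did not overlap (Rptor to Rictor, Fnip1 to Fnip2 and Eif4ebp1 to Eif4ebp2), and 0 passed after adjustment, which 3 against 3 livers could not reach. For the Rraga to Rragb ratio no value was formed, because Rragb was listed at 0 in 2 livers. The ratio of Akt1 to Akt2 was 0.816 ± 0.0213 in CCR1-KO and 0.857 ± 0.0477 in WT, and that of Rps6kb1 to Rps6kb2 was 0.778 ± 0.0707 in CCR1-KO and 0.734 ± 0.0681 in WT (SD, n = 3 each). The groups overlapped for both. Castor1 to Castor2 was 2.26 ± 0.939 in CCR1-KO and 1.83 ± 0.224 in WT, also with overlapping groups.

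**Figure D4:**
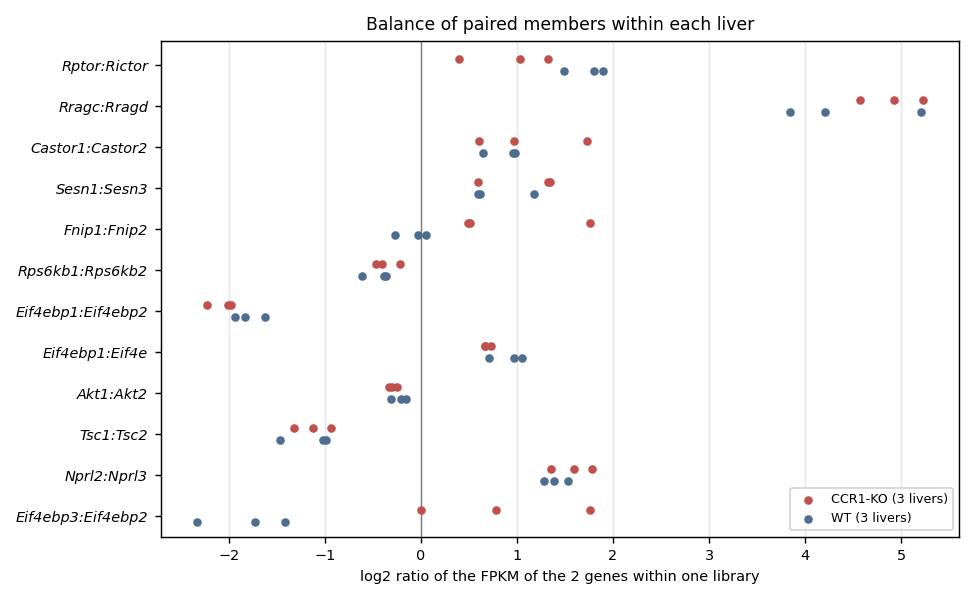
Log2 ratio of the FPKM of 2 genes within each liver (x axis) for 11 pairs of members and for Eif4ebp3 to Eif4ebp2, a pair chosen after its values were seen; red points are CCR1-KO and blue points WT livers. The groups are apart for Rptor to Rictor, Fnip1 to Fnip2, Eif4ebp1 to Eif4ebp2 and Eif4ebp3 to Eif4ebp2.

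Genes around the network, in 7 lists that hold none of the members, gave 8 higher and 1 lower among 121 tested. That is 6.61% higher and 0.826% lower, against 2.83% and 3.61% of all tested genes, and without scaling factors 5 were higher and 2 lower. The lists were drawn up with earlier results of these data known, so these shares are no test of the pathway. Without WT replicate 63 or without WT replicate 64, 0 were called higher, in fits that called 102 and 163 genes in all. No gene was called among 3 KICSTOR subunits, 5 factors of complex assembly and the 31 ribosomal proteins. Among 25 other effectors, 4 rose and 0 fell. Eif4ebp3, a further 4E-BP, had 33.5, 122 and 55.6 CPM in CCR1-KO livers, against 10.6, 10.01 and 5.95 CPM in WT livers. All 3 CCR1-KO livers were above all WT livers, and they differed widely among themselves (log2 fold change 2.99 ± 0.48, adjusted p = 0.017). Per length, Eif4ebp3 was at 76.1 ± 48.1 FPKM in CCR1-KO and 12.0 ± 3.01 FPKM in WT. Its ratio to Eif4ebp2 was 1.00, 3.40 and 1.72 in CCR1-KO livers, against 0.375, 0.302 and 0.199 in WT livers. This pair was chosen after its values were seen (exact permutation p = 0.10). By this measure Eif4ebp3 was at or above Eif4ebp2 in CCR1-KO livers and below it in WT livers. The Eif4ebp3 model lies inside Maskbp3, a longer model on the same strand, which had 21.8 ± 6.63 CPM in CCR1-KO and 13.4 ± 2.41 CPM in WT, so the split of reads between them is uncertain.

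The other 3 effectors that rose act in lipid synthesis, autophagy and growth factor signalling. Lpin1, a phosphatidate phosphatase whose entry into the nucleus mTORC1 restrains, had 187, 1000.0 and 362 CPM in CCR1-KO livers, against 66.4, 47.1 and 33.0 CPM in WT livers. The CCR1-KO livers spanned a wide range, all above WT (log2 fold change 3.40 ± 0.61, adjusted p = 0.023). Atg13, a subunit of the kinase complex that starts autophagy, rose by 0.55 ± 0.12 on the log2 scale (adjusted p = 0.041). Sgk1, a kinase activated through mTORC2, rose by 0.52 ± 0.12 (adjusted p = 0.047).

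In the lists named as inputs, Irs2, Foxo1, Foxo3 and Slc38a2 rose, although the FoxO proteins are themselves targets of AKT. Irs2, the insulin receptor substrate, had 29.0, 53.2 and 56.8 CPM in CCR1-KO livers, against 16.1, 16.3 and 18.3 CPM in WT livers (log2 fold change 1.46 ± 0.24, adjusted p = 0.018). It was the 1 gene called of 16 insulin and PI3K inputs. The transcription factor genes Foxo1 and Foxo3, whose products AKT holds in the cytoplasm, were the 2 called among 14 AMPK and stress inputs. Foxo1 had 49.0, 60.1 and 66.4 CPM in CCR1-KO livers, against 30.1, 26.2 and 28.5 CPM in WT livers (log2 fold change 1.05 ± 0.14, adjusted p = 0.011), and Foxo3 rose by 0.92 ± 0.22 (adjusted p = 0.049). Of 27 other lysosomal and amino acid inputs, Slc38a2 rose and Atp6v1a fell. Slc38a2, a transporter of neutral amino acids, had 135, 317 and 319.8 CPM in CCR1-KO livers, against 67.6, 51.3 and 56.0 CPM in WT livers (log2 fold change 2.14 ± 0.32, adjusted p = 0.015). Atp6v1a, a catalytic subunit of the proton pump that acidifies lysosomes, had 37.2, 32.6 and 37.8 CPM in CCR1-KO livers, against 47.7, 55.1 and 58.1 CPM in WT livers (log2 fold change -0.58 ± 0.12, adjusted p = 0.037). For each of these 5 genes the groups were apart, and for the 4 that rose replicate 65 was the lowest CCR1-KO liver. Foxo1 was called in 4 of the 6 fits that left out 1 liver, Slc38a2, Eif4ebp3 and Lpin1 in 3 (those without a CCR1-KO liver), and Irs2, Foxo3, Atg13, Sgk1 and Atp6v1a in 1, the fit without CCR1-KO replicate 65.

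**Figure D5:**
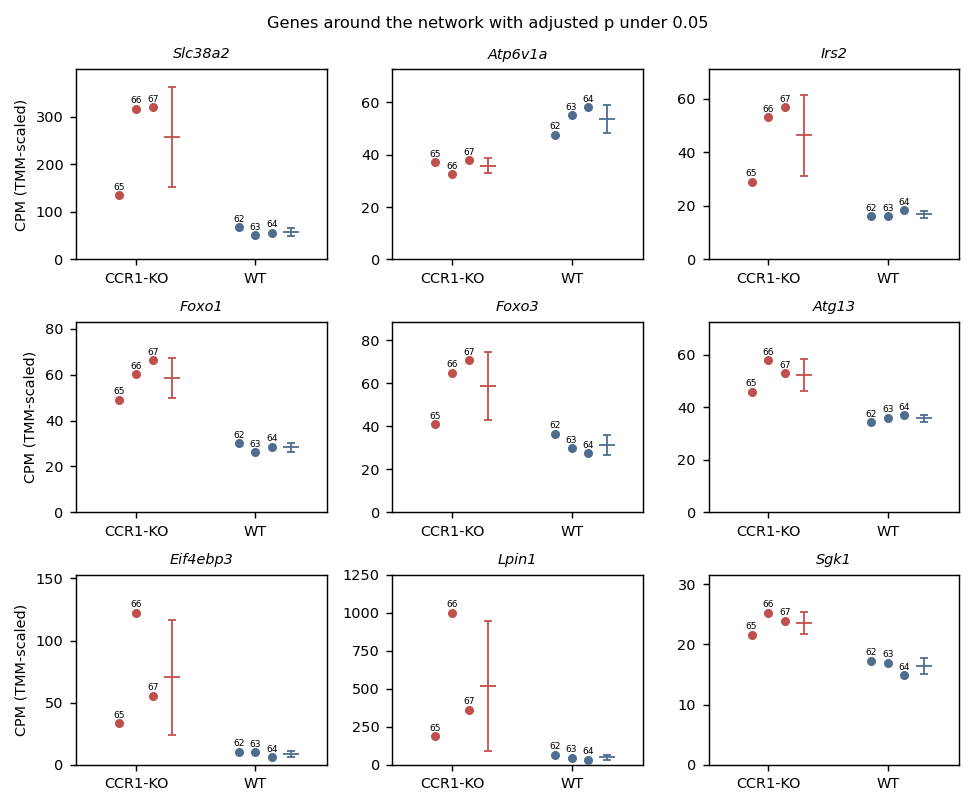
TMM-scaled CPM in each liver (points, with replicate numbers) and mean ± SD (bars) for the 9 called genes of the 7 lists around the network, CCR1-KO left and WT right, each axis from 0. Atp6v1a is the 1 gene lower in CCR1-KO, and Eif4ebp3 and Lpin1 have their highest value in replicate 66.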

How the data were processed

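Liver RNA of 6 mice was analysed, 3 CCR1-KO and 3 WT by the titles in the labels. Tool names listed in the submitters' processing notes, without their roles, are StringTie 2.1.6, HISAT2 2.2.1, cutadapt 1.9, edgeR and DESeq2. The deposited table gives whole-number read counts, which were not normalized, and FPKM values computed by the authors; FPKM followed the counts by 1 factor per library (SD of the log2 ratio at most 0.00095 over 3308 genes). The notes name a human build, but all 45 member identifiers are in the mouse annotation GENCODE M21 (GRCm38), 40 with identical coordinates and strand; gene coordinates are given as the table has them. Use of strand and of reads matching several genes is not stated, and 21 of the 45 members overlap another gene model.

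Counts were tested with edgeR 4.0.16 (R 4.3.3): filterByExpr (minimum count 10, minimum total 15), TMM factors, glmQLFit and glmQLFTest, with Benjamini-Hochberg adjustment over 17729 genes. TMM factors were 1.065, 0.874 and 0.779 for CCR1-KO and 1.056, 1.119 and 1.169 for WT. SE was taken as the size of the log2 fold change divided by the square root of F, and 95% intervals use the degrees of freedom of the test. Alternatives were limma 3.58.1 on log2(FPKM + 0.5), DESeq2 1.42.0, other scaling and filters, and leaving out each library. Replicate pairs differed by more than sampling noise (chi-square per degree of freedom at least 62.8). It ran from 62.8 to 163 within WT. Within CCR1-KO it was 397 and 624 for the pairs with replicate 65 and 227.5 for replicates 66 and 67. The test was also run on counts simulated with the fitted dispersions, in which no liver was set apart from its group. That run therefore does not bear on calls that depend on CCR1-KO replicate 65. Whether replicates share a litter or cage is not stated, so p-values measure the spread between these livers. The members, lists and pairs were chosen with earlier results of these data known. Values in every library are given for Mtor, Rptor and Mlst8, for called members and for the member of highest FPKM in each class. They are also given for the 12 further members of smallest p with groups that do not overlap. Around the network, called genes are plotted by library, and Atg13, Sgk1 and Foxo3 have only their log2 fold changes in the text. Fnip2 was added for its ratio after its values were seen.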

Additional observations from a re-analysis of the deposited data

How the results depend on the processing

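No paired analysis was possible because the groups share no replicate numbers. Without TMM scaling the median of all genes fell by 0.30 on the log2 scale (by 0.23 and 0.27 in the limma fits on FPKM with pseudocounts of 0.5 and 0.1, and by 0.17 without a filter), and the sign of 20 members turned without scaling; medians of roles are therefore given relative to that median. The count of all called genes, 1141, was 2521 with DESeq2, 735 with no filter on low counts, 239 with limma and no filter, and 102 to 2419 with 1 liver left out. The highest of these, 2419, was without CCR1-KO replicate 65, and the other fits with 1 liver left out gave 102 to 395.

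Members called higher numbered 0 with no scaling factors, with no filter on low counts and in the 3 limma fits, 2 with DESeq2 (Wdr59 and Rictor), and 0 to 3 with 1 liver left out. Members called lower numbered 2 with no scaling factors (Mlst8 and Mtor), 3 with DESeq2 (Mlst8, Castor1 and Castor2), 4 with limma at a pseudocount of 0.5 (Mlst8, Castor1, Rragc and Mtor), 3 at 0.1 (Mlst8, Castor1 and Mtor), 0 with no filter in edgeR or limma, and 0 to 3 with 1 liver left out. With no scaling factors 6.07% of all tested genes were called, with DESeq2 14.2% and with limma 10.5%. Mlst8 passed in 6 of 8 other settings and Wdr59 in 3, each with the same sign in all. Around the network, genes called higher numbered 5 with no scaling factors, with no filter and with limma at 0.5 and 0.1, 13 with DESeq2, 1 with limma and no filter, and 0 to 10 with 1 liver left out; genes called lower numbered 2, 4 with DESeq2, 3 and 2 with limma, 0 with limma and no filter, and 0 to 4.

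The median log2 fold change of a role, relative to that of all genes, moved by more than the spread between replicates as follows. With limma and no filter it was -0.05 for mTORC1 and shared subunits, -0.12 for mTORC2, 0.12 for TSC and Rheb, -0.31 for the Rags, 0.07 for GATOR1, -0.01 for GATOR2, -0.52 for the sensors and 0.0018 for the effectors. With limma at 0.5 it was -0.27 for the Rags, 0.12 for GATOR1 and -0.46 for the sensors, and at 0.1 it was -0.24 for the Rags. With 1 liver left out it ran from -0.70 to -0.21 for the Rags, from -0.08 to 0.10 for Ragulator, from 0.17 to 0.22 for GATOR1 and from 0.01 to 0.13 for GATOR2. Some uncalled genes near 0 turned sign: Rptor (-0.05) and Flcn (-0.04) with limma and no filter, Sec13 with limma (-0.05 at 0.5, -0.02 at 0.1, -0.11 with no filter), and, with 1 liver left out, Mapkap1 (-0.05 to 0.03), Rraga (-0.20 to 0.01), Lamtor2 (-0.10 to 0.0048) and Sec13 (-0.03 to 0.08). The cause was not tested. Reads limit Rragb and Castor1 most.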
